A study of Bos taurus with 6 samples.

Results

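Nuclear receptors are transcription factors that bind DNA and, in many cases, a small lipophilic ligand such as a retinoid, a thyroid hormone, an oxysterol or a fatty acid. Many of those described here bind DNA as heterodimers with a retinoid X receptor (RXR), while orphan members such as NR5A1 and NR5A2 bind as monomers. In the ovary NR5A1 and NR5A2 are known as activators of steroidogenic genes in granulosa cells, and PPARG is known as a receptor of the granulosa layer. The group described here was the nuclear receptors other than the NR4A family and the classical steroid receptors, 38 genes chosen by name. Probes carrying 36 of these symbols were found among 15229 named genes on the array, and none carried the symbols RARB or NR2F6. Each gene was represented by its brightest probe, and 28 genes gave signal above the negative control spots on enough arrays to be tested.

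The RNA came from cumulus cells, which form the somatic layers around the oocyte, taken from complexes of Holstein cow ovaries collected at a slaughterhouse. One group (CC-rFSH in the labels) matured in a medium holding 0.5 µg/mL rFSH, a recombinant form of follicle-stimulating hormone, and the control (CC-6Hrs) had the same medium without rFSH, so both groups were exposed to 1 µg/mL estradiol, foetal calf serum, pyruvate and gentamicin. The 3 biological replicates, numbered 2, 3 and 4, each compared rFSH-treated with control cells on 1 array with rFSH in Cy5 and 1 with rFSH in Cy3. The control carries 6 h in its name although the protocol describes 22 to 24 h of maturation and no other time, so a difference in culture time cannot be told apart from one in rFSH. Complexes were cultured with the oocyte inside, how many cows made up a replicate is not stated in the labels, and fewer cells of a type and less RNA per cell cannot be told apart in such bulk RNA. Detection was read on 16 granulosa and cumulus markers, of which 15 were tested, with NR5A2, itself a member of the group, among them. FSHR, INHA and AMH exceeded the negative controls on all 6 arrays in both channels, FOXL2 did so on 4 arrays in each channel, and AMHR2 on none. Of 13 theca and stroma markers, COL1A1, DCN, LUM, ACTA2, PDGFRA and TCF21 also did so on all 6 arrays in both channels. The others, namely COL3A1, INSL3, CYP17A1, TAGLN, PDGFRB, COL1A2 and MYH11, did so on fewer arrays of at least 1 channel. COL1A2 did so on 2 arrays in each channel. Detection alone therefore does not separate cumulus cells from stroma.

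RARA, the alpha receptor for retinoic acid, was the one member whose difference passed the test, and it was lower with rFSH. PPARG, the gamma receptor for fatty acids and their derivatives, had the lowest mean ratio of the group, and PPARD, its delta paralog, had the highest. Both missed the threshold narrowly. The other 25 tested receptors had mean log2 ratios between -0.55 and 0.56. In limma with Benjamini-Hochberg adjustment at 0.05, no member was higher and 1 of 28 was lower, or 3.57%, beside 3.87% of 13147 named genes called higher and 4.87% called lower (8.74% in all). Over all 34832 tested probes 2.97% were higher and 3.37% lower. At an unadjusted p under 0.05, 3 members were higher and 3 were lower, or 21.4% in all, beside 30.9% of named genes. The sign was the same on all 6 arrays for 5 members, or 17.9%, beside 26.8% of named genes: PPARD and NR1H3 were higher, and RARA, PPARG and NR0B1 were lower. The median log2 ratio of the 28 members was -0.02, beside 0.01 for all named genes, and the median absolute ratio was 0.10 beside 0.19.

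RARA was 1.87-fold lower with rFSH. On the arrays with rFSH in Cy5 its log2 ratio, rFSH over control, was -0.74, -0.88 and -0.94 in replicates 2, 3 and 4, and on those with rFSH in Cy3 it was -1.02, -0.81 and -1.02. All 6 arrays placed RARA lower with rFSH, and replicates and dye orientations lay close together. Its raw signal was 2.32 to 3.22 times the negative control limit in the rFSH channel and 4.51 to 6.74 times in the control channel, so the groups did not overlap on this scale. The mean log2 ratio was -0.90 ± 0.07 (SD, n = 3), with a 95% confidence interval of -1.12 to -0.69 and an adjusted p = 0.0257 in limma. With the channels taken as unpaired samples, with no replicate block, the adjusted p was 0.0760. The call was also lost without replicate 2 (adjusted p = 0.140) and without replicate 3 (adjusted p = 0.0817). In both of these fits no probe on the array was called, so they cannot show how firm the RARA call is. The RARA ratio itself stayed between -1.05 and -0.80 under every alternative run.

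RARG, the gamma receptor for retinoic acid, had a log2 ratio of 0.07 ± 0.08 (SD, n = 3, adjusted p = 0.666), but its signal was at most 1.37 times the limit in either channel. Its log2 ratio exceeded that of RARA on all 6 arrays. RARA was singled out by its call, however, and RARG was dim, so this does not show that these receptors differ. THRA, the alpha receptor for thyroid hormone, had replicate values of 0.19, -0.88 and -0.97 and a mean of -0.55 ± 0.64 (adjusted p = 0.303). Replicate 2 had the opposite sign for THRA, and the difference did not exceed the replicate spread. VDR, the vitamin D receptor, had log2 ratios of 0.14, -0.14 and -0.23 with rFSH in Cy5 and of -0.16, 0.08 and 0.11 with rFSH in Cy3. It exceeded the negative controls on 2 arrays with rFSH and 3 without, so its mean of -0.03 (95% confidence interval -0.24 to 0.17) rests on dim signal. THRB, the beta receptor for thyroid hormone, exceeded the negative controls on 1 array with rFSH and on 0 of the control channel, and was not tested.

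**Figure D1:**
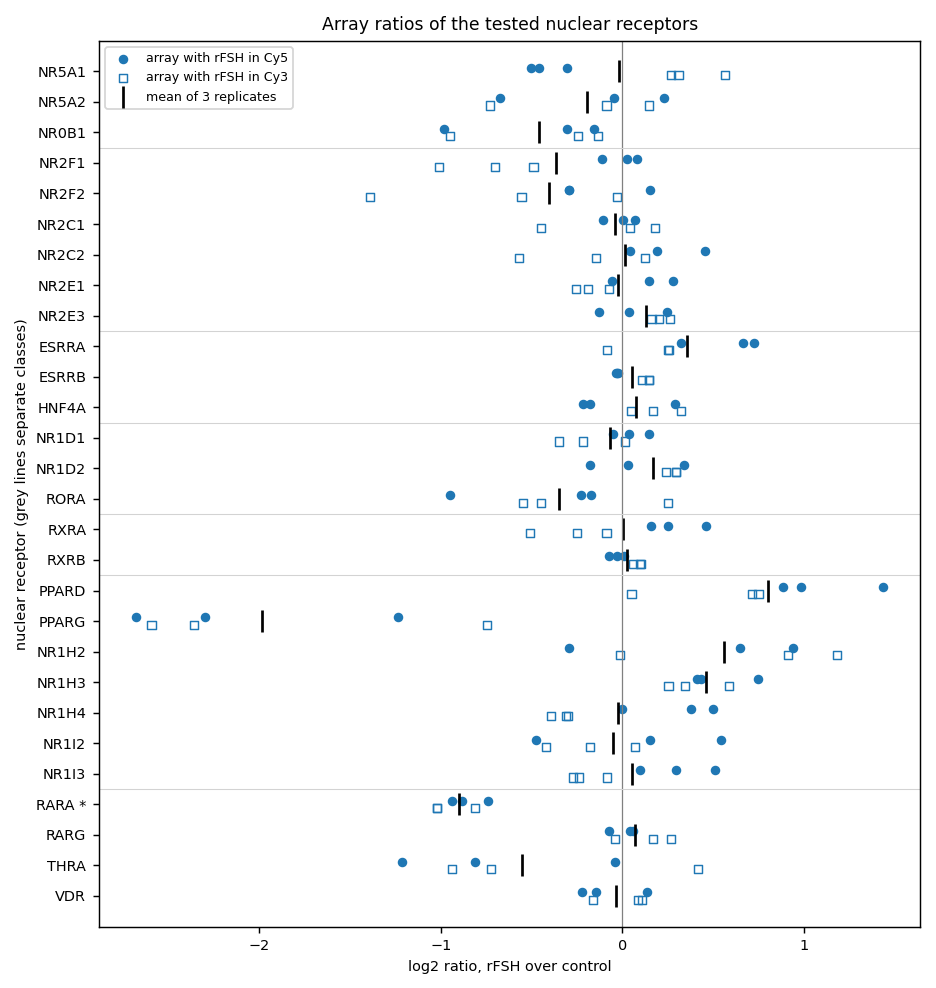
Log2 ratio of rFSH over control (x axis) on each of the 6 arrays for the 28 tested nuclear receptors, grouped by class. Circles are arrays with rFSH in Cy5, squares arrays with rFSH in Cy3, bars the mean of 3 replicates, and the star marks an adjusted p under 0.05. RARA is tightly grouped between -1.02 and -0.74, PPARG is spread from -2.68 to -0.74, and circles and squares of NR5A1 and RXRA lie on opposite sides of 0.

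Lipid and xenobiotic sensors held the widest range of ratios. PPARG is best known as the regulator of fat cell differentiation, and its log2 ratio was -1.23, -2.30 and -2.68 with rFSH in Cy5 and -0.74, -2.36 and -2.59 with rFSH in Cy3, in replicates 2, 3 and 4. Each array placed PPARG lower with rFSH, with replicate 2 nearest to 0 in both orientations. After normalization, its signal in the rFSH channel was 9.97, 9.75 and 9.72 on the log2 scale, against 10.96, 12.08 and 12.35 in the control channel. The spread between replicates was 0.137 with rFSH and 0.738 in the control channel (SD, n = 3). The mean log2 ratio was -1.98 ± 0.88 (SD, n = 3; 3.96-fold lower), with a 95% confidence interval of -2.94 to -1.02. In limma the adjusted p was 0.0555. PPARG stood at rank 58 from the lowest ratio among 13147 named genes.

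PPARD, a widely expressed fatty acid receptor, had replicate values of 0.47, 0.85 and 1.09 and was higher with rFSH on all 6 arrays. Its signal was 7.73 to 10.7 times the negative control limit with rFSH, against 4.37 to 7.51 times in the control channel. The groups did not overlap on this scale but did so after normalization, where the log2 signal was 10.88, 10.95 and 10.32 with rFSH and 10.42, 10.1 and 9.23 in the control channel. The lowest array ratio was 0.05, in replicate 2 with rFSH in Cy3. The mean log2 ratio of PPARD was 0.80 ± 0.32 (SD, n = 3), with a 95% confidence interval of 0.41 to 1.20 and an adjusted p = 0.0571 in limma. By dye orientation the ratio was 1.10 over the arrays with rFSH in Cy5 (adjusted p = 0.0213) and 0.50 over those with rFSH in Cy3 (adjusted p = 0.135). PPARD and PPARG differed in direction in each replicate, and the difference between their log2 ratios, PPARD minus PPARG, was 1.46, 3.18 and 3.73. They were singled out as the members of highest and lowest mean ratio, and this difference was not tested. PPARA, the alpha receptor, reached at most 0.747 times the limit with rFSH and 0.717 times without it, and was not tested.

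The calls of PPARG and PPARD turned on the processing. PPARG was called under 9 and PPARD under 7 of 14 alternatives that kept all replicates, always in the direction given. In a fit of the 6 arrays with the replicate as a random block, both were called (adjusted p = 0.00318 for PPARG and 0.00751 for PPARD), as was NR1H3. In that fit 2 of 28 members were higher and 2 were lower, beside 22.5% of named genes called in either direction. Without the replicate 2 array with rFSH in Cy3, PPARG and PPARD were called as well (adjusted p = 0.0280 and 0.0200), beside 11.3% of named genes. This alternative was chosen after seeing the data, and 38.3% of probes exceeded the limit in the control channel of that array, the lowest share of any array channel. Neither PPARG nor PPARD was called when a whole replicate was left out, but without replicate 2 or without replicate 3 no probe on the array was called. Without replicate 4, where 510 probes were higher and 677 lower, the adjusted p in limma was 0.0824 for PPARG and 0.103 for PPARD.

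The liver X receptors NR1H2 and NR1H3 are sensors of oxysterols. NR1H3 had replicate values of 0.67, 0.38 and 0.34, was higher with rFSH on all 6 arrays, and averaged 0.46 ± 0.18 (SD, n = 3, adjusted p = 0.0804). A further, dimmer probe of NR1H3 had the opposite sign (-0.20, adjusted p = 0.304), so the direction depended on the probe. NR1H2 had replicate values of 0.78, -0.15 and 1.06, and its mean of 0.56 ± 0.64 did not exceed that spread (adjusted p = 0.291). The bile acid receptor NR1H4 and the xenobiotic receptors NR1I2 and NR1I3 had mean log2 ratios of -0.02, -0.05 and 0.05, with signal of at most 1.28 times the limit. Replicate values were -0.20, 0.09 and 0.04 for NR1H4 and 0.31, -0.45 and -0.01 for NR1I2, so each had both signs. NR1I3 exceeded the negative controls on 3 arrays with rFSH and on none of the control channel. Its replicate values were 0.21, 0.01 and -0.07.

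**Figure D2:**
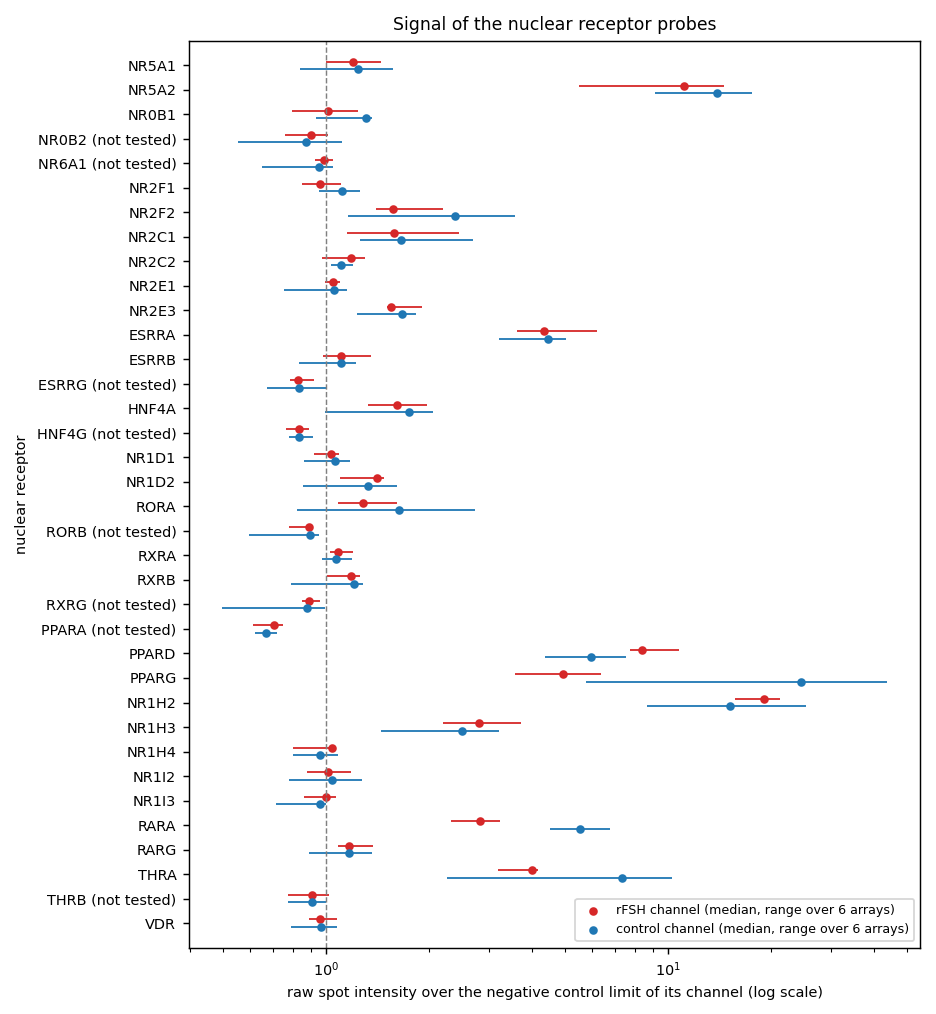
Raw spot intensity divided by the negative control limit of its channel (x axis, log scale) for the 36 nuclear receptors with a probe, as median and range over 6 arrays, rFSH channel above control channel. The dashed line is the limit. RARA and PPARG lie well above it, with lower signal in the rFSH channel, and most other receptors lie within 2 times the limit.

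The gonadal regulators were not called. NR5A2, an activator of granulosa steroidogenic genes needed for ovulation in mice, had log2 ratios of -0.05, -0.68 and 0.23 with rFSH in Cy5 and of -0.09, -0.73 and 0.14 with rFSH in Cy3. Both orientations agreed within each replicate, and replicate 3 alone was clearly below 0. The mean for NR5A2 was -0.20 ± 0.46 (SD, n = 3, adjusted p = 0.620). Its 2 other probes had means of -1.24 ± 0.96 (adjusted p = 0.147) and -0.35 ± 0.27 (adjusted p = 0.206), so the size depended on the probe. The replicate values of the brighter of these probes were -0.13, -1.85 and -1.73, with replicate 2 again nearest to 0.

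NR5A1, or steroidogenic factor 1, had log2 ratios of -0.50, -0.31 and -0.46 with rFSH in Cy5 and of 0.31, 0.27 and 0.56 with rFSH in Cy3. The sign followed the dye, not the treatment, and limma called a dye effect for this probe (log2 Cy5 over Cy3 -0.40, adjusted p = 0.0212). Averaged over both dyes NR5A1 had a log2 ratio of -0.02 ± 0.07 (95% confidence interval -0.24 to 0.20). NR0B1, or DAX1, a repressor of NR5A1 activity, had replicate values of -0.20, -0.97 and -0.22 and was lower on all 6 arrays, but did not pass (adjusted p = 0.235). It exceeded the negative controls on 3 arrays with rFSH and 5 of the control channel. With rFSH it did so on neither array of replicate 3, so its largest value rests on signal below the limit. NR0B2 and the germ cell factor NR6A1 exceeded the negative controls on 1 array with rFSH and 2 arrays of the control channel each, and were not tested.

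By the mean over markers, replicate 3 was also the lowest replicate for oocyte transcripts, which cumulus preparations can carry. The mean log2 ratio of 16 tested oocyte markers was 0.63, -0.82 and 0.15 in replicates 2, 3 and 4, with summed raw intensity of 11500 to 19100 with rFSH and 7900 to 14900 in the control channel. The lowest values in replicate 3 were those of ZP2 (-3.14), ZP4 (-2.67), ZAR1 (-2.67) and KPNA7 (-2.11). OOEP, MOS and DAZL were instead highest in replicate 3 (0.01, 0.35 and -0.12), and BMP15 and UCHL1 were lowest in another replicate. One of the 16 markers, UCHL1, was called higher by 1 of its 3 probes, and GDF9 did not exceed the limit on enough arrays to be tested. NR5A2, NR0B1 and NR1H2 were lowest in replicate 3. So were ESRRA, ESRRB, HNF4A, NR1D1, NR1D2, NR1I2, NR2C1, NR2E1, RARG and RXRB. Every member is lowest in some replicate, so this listing shows no shared pattern by itself. Some margins were small, as for ESRRB (0.06, 0.04 and 0.06 in replicates 2, 3 and 4) and RXRB (0.04, 0.01 and 0.03). The median log2 ratio of the 28 members was 0.04, -0.05 and 0.04 in replicates 2, 3 and 4. How many of all named genes were lowest in replicate 3 was not counted, and the part of oocyte RNA in these ratios was not tested. RARA had ratios of -0.88, -0.85 and -0.98 in replicates 2, 3 and 4.

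NR2F2, or COUP-TFII, is known as a factor of theca and stroma as well as other mesenchyme. Its log2 ratio was -0.29, 0.15 and -0.29 with rFSH in Cy5 and -0.03, -0.56 and -1.39 with rFSH in Cy3. Arrays disagreed in sign in replicate 3 and in size in replicate 4, and the mean of -0.40 ± 0.38 (SD, n = 3) was not called (adjusted p = 0.245). The 2 other NR2F2 probes averaged -0.31 and 0.05. NR2F1, or COUP-TFI, had replicate values of -0.49, -0.30 and -0.31 and a mean of -0.37 ± 0.11 (adjusted p = 0.0874). NR2F1 exceeded the negative controls on 1 array with rFSH and on 5 of the control channel. Its ratio was -0.0032 over arrays with rFSH in Cy5 and -0.73 over those with rFSH in Cy3, and limma called a dye effect for it (adjusted p = 0.0332).

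Of 12 tested theca and stroma markers 3 were called lower with rFSH, namely ACTA2, TCF21 and MYH11, and none was called higher. Among named genes 4.87% were called lower and 3.87% higher. PDGFRA, named after its values had been seen, was higher on all 6 arrays by its brightest probe without passing in limma (0.62 ± 0.30, adjusted p = 0.0820). Its 3 probes ranged from 0.02 to 0.62. MYH11 exceeded the negative controls on 4 arrays of the control channel and on none with rFSH, so it was tested only through the channel where it was higher. The mean log2 ratio of the 12 markers by replicate was -0.21, -0.38 and -0.02, with summed raw intensity of 14800 to 31400 with rFSH and 24000 to 35000 in the control channel. The theca markers CYP17A1 and INSL3 had ratios of 0.05 and 0.09, but CYP17A1 exceeded the negative controls on only 4 arrays with rFSH and 3 of the control channel. The part of these cells in the COUP-TF ratios was not tested. None of 11 tested blood and endothelium markers was called in limma, 2 having an unadjusted p under 0.05.

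NR2C1 and NR2C2, the testicular receptors, had log2 ratios of -0.04 ± 0.15 and 0.02 ± 0.12 (SD, n = 3), with replicate values of 0.06, -0.22 and 0.04 for NR2C1 and of -0.06, -0.05 and 0.16 for NR2C2. NR2E1 and NR2E3, known from neural tissue and photoreceptors, had ratios of -0.02 ± 0.11 and 0.13 ± 0.11. The replicate values were 0.05, -0.16 and 0.04 for NR2E1 and 0.25, 0.10 and 0.04 for NR2E3, so that NR2E3 was above 0 in each replicate without passing the test (adjusted p = 0.454). The estrogen-related receptor ESRRA, a partner of PGC-1 coactivators in mitochondrial gene control, had replicate values of 0.32, 0.29 and 0.46 and a mean of 0.36 ± 0.09 (SD, n = 3, adjusted p = 0.0866). One of its 6 arrays, that of replicate 2 with rFSH in Cy3, had the opposite sign at -0.08. ESRRB was at 0.05 ± 0.01, and no array had ESRRG above the negative controls. HNF4A, a hepatic factor, was at 0.07 ± 0.09 by its brightest probe, while its 2 other tested probes gave 0.45 (adjusted p = 0.0724) and 0.14. No array had HNF4G, a paralog of HNF4A, above the negative controls.

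Among the clock receptors, NR1D1 (REV-ERB alpha) represses the clock gene ARNTL. NR1D1 had log2 ratios of 0.14, -0.05 and 0.03 with rFSH in Cy5 and of -0.35, -0.22 and 0.01 with rFSH in Cy3, a mean of -0.07 ± 0.08 (adjusted p = 0.666). NR1D2 (REV-ERB beta) had 0.34, -0.18 and 0.03 with rFSH in Cy5 and 0.30, 0.24 and 0.30 with rFSH in Cy3, a mean of 0.17 ± 0.14 (adjusted p = 0.366). NR1D1 had both signs among its replicates, and NR1D2, at 0.32, 0.03 and 0.16 in replicates 2, 3 and 4, was above 0 in each without passing the test. RORA, an activator at the same DNA elements, had replicate values of 0.04, -0.39 and -0.70 and a mean of -0.35 ± 0.37 (adjusted p = 0.295). No array had RORB, its paralog, above the negative controls.

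RXRA, the common heterodimer partner, had log2 ratios of 0.25, 0.16 and 0.46 with rFSH in Cy5 and of -0.51, -0.25 and -0.09 with rFSH in Cy3. As with NR5A1 the sign followed the dye (dye effect adjusted p = 0.0453), and the mean was 0.00 ± 0.16 (95% confidence interval -0.26 to 0.27). RXRB, a further partner, averaged 0.03 ± 0.01 (SD, n = 3, 95% confidence interval -0.18 to 0.23), and RXRG exceeded the negative controls on no array. Of the 28 members 4 had a called dye effect, or 14.3%, beside 9.99% of named genes.

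Most tested receptors were dim. Of the 28 members 19 had a mean signal under 2 times the negative control limit, and their median absolute log2 ratio was 0.05. None of the 19 was called in limma, beside 2.09% of named genes this dim. At an unadjusted p under 0.05 in limma there was 1, NR2F1, and named genes this dim were not counted at that threshold. The 9 brighter members were ESRRA, NR1H2, NR1H3, NR2F2, NR5A2, PPARD, PPARG, RARA and THRA, with a median absolute ratio of 0.55. One of the 9 was called, beside 15.9% of named genes this bright. This split was chosen after the values had been seen.

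**Figure D3:**
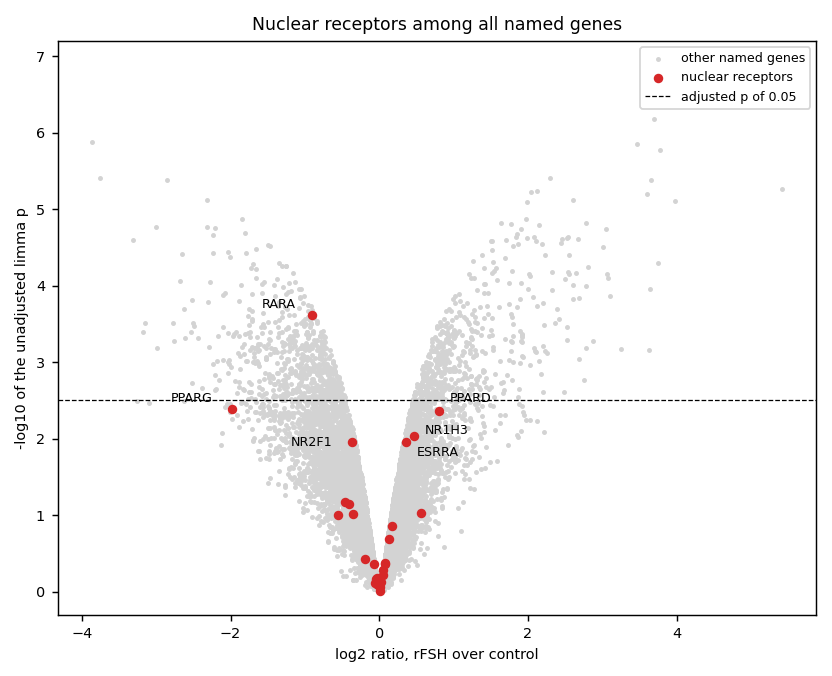
Log2 ratio of rFSH over control (x axis) and -log10 of the unadjusted limma p (y axis) for 13147 named genes, with the 28 tested nuclear receptors in red. The dashed line marks an adjusted p of 0.05. RARA lies above the line, PPARG and PPARD lie just below it on opposite sides, and most receptors lie near 0.

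Genes around these receptors were counted in 8 lists, to be read beside 3.87% of named genes called higher and 4.87% called lower. Retinoid handling had 1 of 15 tested members higher, RBP4, the plasma retinol carrier (log2 ratio 1.18 ± 0.37, SD, n = 3, adjusted p = 0.0400), and none lower, with a list median of 0.09. Of 14 tested PPAR targets FABP3, a fatty acid binding protein, rose (0.79 ± 0.27, adjusted p = 0.0483), none fell by its brightest probe, and the median was 0.08. CD36, a fatty acid transporter in this list, was not called by its brightest probe (-0.31 ± 0.19, adjusted p = 0.175), but 2 of its 3 probes were called and the probes ranged from -2.76 to -0.31. It was named after its values had been seen. Of 10 tested liver X receptor targets none rose, and MYLIP, a ubiquitin ligase for the LDL receptor (-1.62 ± 0.62, adjusted p = 0.0466), and SCD, a fatty acid desaturase (-0.55 ± 0.04, adjusted p = 0.0400), fell. The median of that list was -0.15. SREBF1, another target in it that was named after its values had been seen, had a ratio of 1.36 ± 0.73 that did not pass (adjusted p = 0.0783).

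Of 13 tested clock genes 3 were called. NPAS2, a partner of ARNTL, fell (-0.96 ± 0.08, adjusted p = 0.0249), the repressor BHLHE41 fell (-1.25 ± 0.46, adjusted p = 0.0460), and its paralog BHLHE40 rose (0.70 ± 0.07, adjusted p = 0.0309), with 1 of 3 BHLHE40 probes called and the probes ranging from -0.07 to 0.70. The median of the clock list was 0.03. Among 17 tested targets of NR5A receptors and related gonadal genes, the lipoprotein receptor SCARB1 rose (2.69 ± 0.50, adjusted p = 0.0228), as did the side-chain cleavage enzyme CYP11A1 (2.20 ± 0.22, adjusted p = 0.0138), while FSHR fell (-0.83 ± 0.28, adjusted p = 0.0478). FSHR kept its call under 7 of the 14 alternatives with all replicates, FABP3 under 9, MYLIP under 10, RBP4 and BHLHE41 under 11, SCD under 12 and BHLHE40 under 13, while NPAS2, SCARB1 and CYP11A1 kept it under all 14. Without replicate 2, and without replicate 3, no probe on the array was called, so these fits cannot show how firm the calls of list genes are. The median of the gonadal list was 0.05, and 14 of its 17 tested genes were not called. Among those were STAR (0.10), CYP19A1 (0.02) and HSD3B1 (-1.10), named after their values had been seen. The SCARB1, CYP11A1 and FSHR values stand beside NR5A1 and NR5A2 ratios that were not called. NR5A1 signal was at most 1.56 times the limit, and a link between these genes and the receptors was not tested.

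None of 17 tested coregulators was called in limma, 5 having an unadjusted p under 0.05, and their median was -0.05. Nearest to the threshold were NCOA1, a steroid receptor coactivator, at 0.59 ± 0.18 (adjusted p = 0.0535) and NCOA7 at -1.89 ± 0.97 (adjusted p = 0.0706). They were named after their values had been seen. None of 5 tested genes of thyroid hormone and vitamin D handling was called, with 2 at an unadjusted p under 0.05. In contrast, 3 of 7 tested receptors of the NR4A and steroid families rose, namely NR4A1 (2.22), PGR (1.79) and NR4A2 (1.01), and none fell, with adjusted p of 0.0272, 0.0181 and 0.0281. NR4A1 and PGR kept their calls under all 14 alternatives and NR4A2 under 11. Whether the NR4A and steroid receptors differ as a group from the 28 receptors was not tested.

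**Figure D4:**
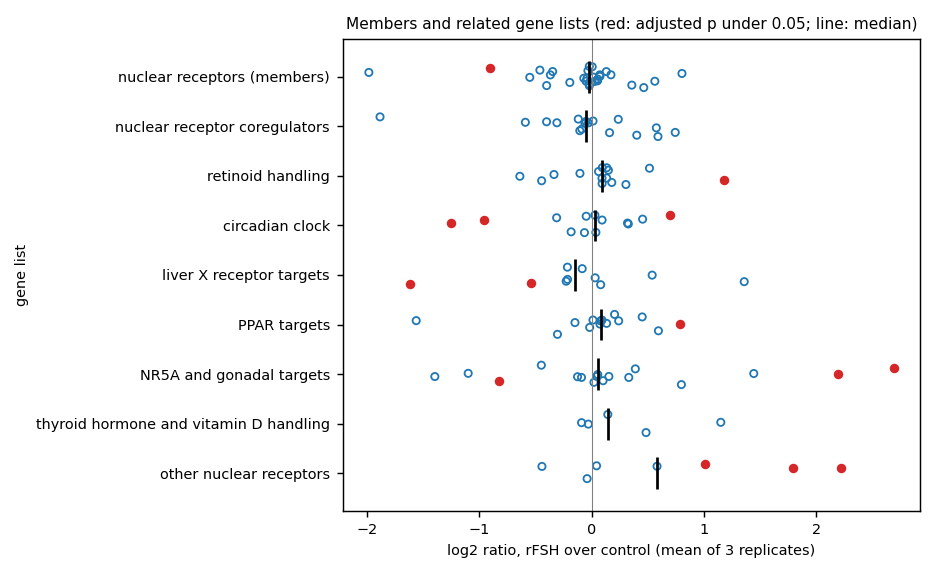
Mean log2 ratio of rFSH over control (x axis) for each tested gene of the nuclear receptor group and of 8 related lists. Red points have an adjusted p under 0.05 and black lines are list medians, which lie between -0.15 and 0.14 except for the NR4A and steroid receptors (other nuclear receptors) at 0.58.

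**Figure D5:**
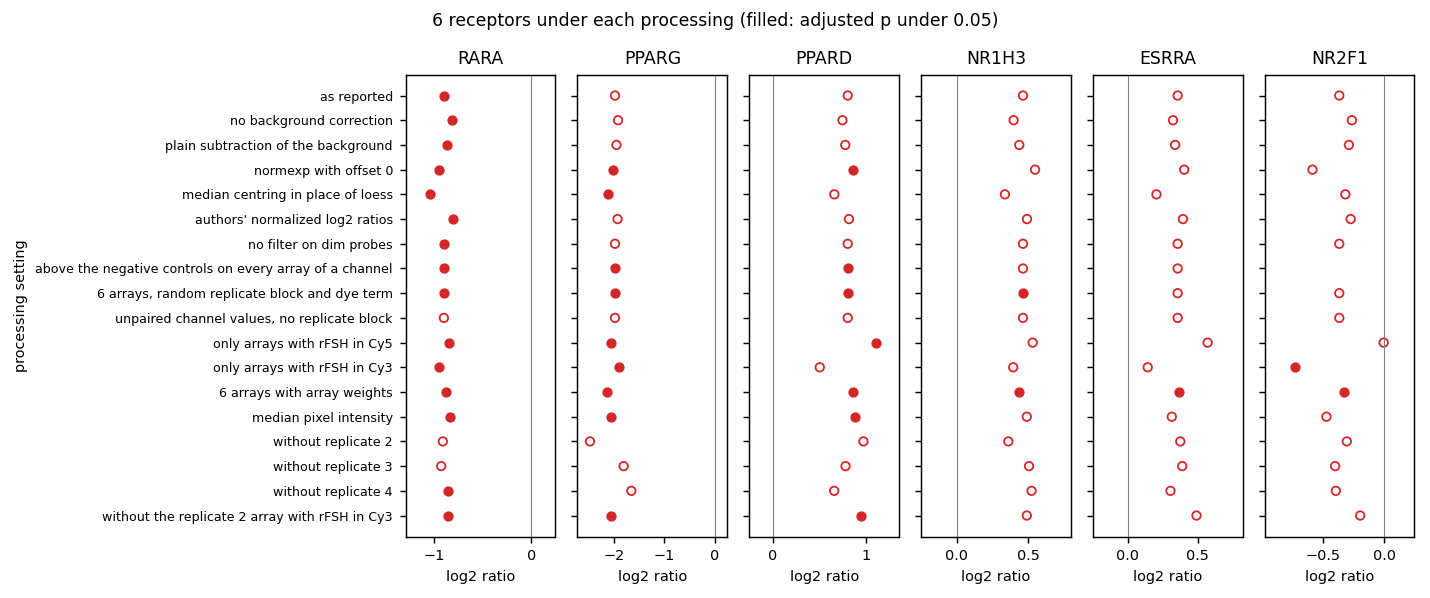
Log2 ratio of rFSH over control (x axis) for 6 receptors under each processing (rows), filled where the adjusted p is under 0.05. RARA stays between -1.05 and -0.80 and is filled in all but 3 rows, PPARG and PPARD are filled in some rows only, and NR1H3, ESRRA and NR2F1 in few. In the rows without replicate 2 and without replicate 3 no probe of any gene was called.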

How the data were processed

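Amplified RNA of rFSH-treated and control cells was labelled with Cy3 and Cy5, per the labels' protocols, and hybridised to 6 Agilent arrays. The authors deposited scanner files of spot and background intensity, not normalized per the file headers, and normalized log2 ratios, which matched log2 Cy5 over Cy3 of the scanner values (r from 0.976 to 0.992) with medians from -0.0202 to 0.00122; how they normalized them is not stated. Mean intensity was corrected with normexp (offset 50), and then loess with a span of 0.3 was applied (limma 3.58.1, R 4.3.3) and ratios were turned to rFSH over control by the dye labels. Control spots had weight 0 in loess, and 18 to 64 spots per array that carry an ignore mark in the deposited files were left out. A probe was tested where it exceeded the mean plus 2 SD of 153 negative control spots (the limit) on at least 3 arrays of a channel, which left 34832 of 43794 probes. The fraction above the limit was 38.3% to 83.3% per array channel. The dye-swapped arrays of each replicate were averaged, and the 3 resulting values per probe went into lmFit and eBayes with Benjamini-Hochberg adjustment over all tested probes. In all 1035 probes were higher and 1173 lower. The rFSH and control RNA of a replicate number share an array, so the test is paired. The steps were tested on simulated data.

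Gene names are those of the platform annotation, some of them outdated; 21790 probes had 1 symbol and 22004 had none. For 2 list genes, BHLHE40 among them, an older synonym was used. Values on all arrays are given for called members and for NR5A1, NR5A2, NR2F2, NR1D1, NR1D2, PPARG, RXRA and VDR, and up to 4 called genes per list are named. Members and lists were chosen with earlier results of these data known.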

Additional observations from a re-analysis of the deposited data

How the results depend on the processing

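Over 14 alternatives that kept all replicates, RARA kept its call in 13 and lost it in the unpaired test, with no replicate block (adjusted p = 0.0760). No called value changed direction. The sign of 15 members with ratios near 0 changed under at least 1 alternative, in no case with a call. Counts below are higher and lower, and causes were not tested beyond what an alternative's construction shows. Members were 1 and 2 with offset 0, median pixels, only rFSH in Cy5, detection on every array of a channel (fewer probes tested) and, chosen after seeing the data, without the replicate 2 array with rFSH in Cy3. In that order, 12.2%, 11.3%, 12.8%, 16.2% and 11.3% of named genes were called, against 8.74% as reported. Members were 0 and 2 with median centring, 0 and 3 with only rFSH in Cy3, and 2 and 2 with the random replicate block. They were 3 and 5 with array weights, which count dye-swapped arrays as independent, and 0 and 0 unpaired. In that order, 10.5%, 12%, 22.5%, 29.3% and 4.24% of named genes were called. By construction members were 3 and 3 at an adjusted p under 0.1 (18.8% of named genes), and 0 and 0 when at least 2-fold was required (4.46% of named genes). Leaving out a replicate gave 0 members higher and 0 to 1 lower in limma, with 6 to 8 members at an unadjusted p under 0.05. Without replicate 2 or without replicate 3 no probe on the array was called, and without replicate 4 5.05% of named genes were. The members' median became -0.17 with only rFSH in Cy3, and ranged from -0.0553 to 0.0437 without a replicate.

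Probes, then named genes, then list genes are given as higher and lower. Without background correction they were 570 and 482, 298 and 286, 5 and 2. With the random replicate block they were 2674 and 3381, 1209 and 1748, 17 and 13, and unpaired they were 468 and 558, 237 and 321, 5 and 4. Array weights gave 3595 and 4506, 1618 and 2232, 22 and 15. Only rFSH in Cy5 gave 1565 and 1833, 717 and 964, 7 and 7, and only rFSH in Cy3 gave 1575 and 1749, 697 and 881, 14 and 9. An adjusted p under 0.1 gave 2330 and 2771, 1063 and 1409, 17 and 12, and a 2-fold minimum gave 475 and 575, 254 and 333, 6 and 2. Without a replicate they ranged over 0 to 510 and 0 to 677, 0 to 267 and 0 to 397, 0 to 6 and 0 to 3. Lower probes, named genes and list genes were 715, 406 and 2 with plain subtraction, 1863, 960 and 10 with offset 0, and 1848, 1000 and 6 with median centring. List genes called lower were 2 in the authors' ratios, 8 with detection on every array of a channel and 11 with median pixels. Of called probes 46.9% were higher, against 29.6% with median centring. Signal within 2 times the limit, as for 19 of 28 members, limits what these arrays resolve.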
